A study of Mus musculus with 3 samples.

Results

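The Sox and forkhead (Fox) genes are 2 families of transcription factors that the mouse brain uses to set and hold cell identity. All gene symbols of the deposited count files that consist of Sox and a number, or of Fox, a letter and a number, were taken, with Sox6 left out and genes without a count kept. This gave 62 genes of 32531 listed, 18 of them Sox and 44 forkhead. They were measured in ribosome-bound RNA of the whole cerebral cortex of adult mice that carry the Htr3a-Cre driver NO176 and the reporter Rosa26-LSL-EGFP/Rpl10a. In this cross, cells that express Cre, or did so earlier in life, make the ribosomal protein Rpl10a fused to EGFP, and anti-EGFP antibodies pull down their ribosomes with the bound messenger RNA (translating ribosome affinity purification). The driver follows Htr3a, a serotonin receptor subunit gene of interneurons from the caudal ganglionic eminence. All 3 libraries, replicates 1, 2 and 3, are such immunopurified samples of the same genotype and tissue. No unpurified sample was analysed here, and enrichment was not computed. The labels name no animal for any library. The spread that p-values rest on may therefore be technical.

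Sox proteins bind DNA through a high-mobility-group box and bend it, and they usually act together with a partner such as a POU factor. Forkhead proteins bind through a winged-helix domain, and some of them, such as the FoxA factors, can open closed chromatin. In the brain, SoxB1 factors keep progenitors undifferentiated, SoxC factors act in young neurons, SoxE factors specify glia and SoxF factors act in vessel walls. Among forkheads, the FoxP factors shape cortical and striatal projection neurons, and the FoxO factors answer to insulin signalling.

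Gene counts came to 13951332 to 14461053 per library. Levels are given as TPM, which divides each count by the length of the gene's exons and scales each library to the same total, and values after ± are SDs over the 3 libraries. Of the marker lists, 8 of 8 GABAergic genes reached 1 TPM in 3 of 3 libraries, with sums of 3902 to 4214 TPM. Excitatory markers reached it in 10 of 11 cases and astrocyte markers in 11 of 12, with sums of 3407 to 3786 TPM and 625 to 736 TPM. Camk2a alone averaged 2542 TPM of the excitatory sum, and Slc1a2 (370 TPM) and Aldoc (199 TPM) made up most of the astrocyte sum. Endothelial markers did so in 3 of 12 cases and ependymal or choroid markers in 0 of 10, with sums of 19.2 to 36.1 TPM and 4.43 to 8.42 TPM. Microglia markers reached it in 6 of 9 cases, with sums of 22.3 to 38.0 TPM. Markers of cells other than interneurons were thus present, and their part in the results was not tested. In such bulk samples, fewer cells of a type and less RNA per cell cannot be told apart.

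The 62 genes ran from no count to 139 TPM on average. At least 1 TPM in 3 of 3 libraries was reached by 29 of 62 (46.8%), against 50.9% of all genes with a length. At least 10 TPM was reached by 17 of 62, against 33.2% of all genes. No count in any library was found for 16 of 62, against 30.3% of all genes. These shares lay near or below those of the whole table. Within the set, 12 of 18 Sox genes (66.7%) and 17 of 44 forkhead genes (38.6%) reached 1 TPM in all libraries. Forkhead genes summed to 880, 807 and 808 TPM in replicates 1, 2 and 3, and Sox genes to 337, 365 and 328 TPM. A few genes carried much of that: Foxj3, Foxk2 and Foxj2 made up 44.2%, 44.9% and 40.5% of the forkhead sum, and Sox1, Sox2 and Sox5 made up 68.9%, 74.3% and 64.9% of the Sox sum.

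**Figure D1:**
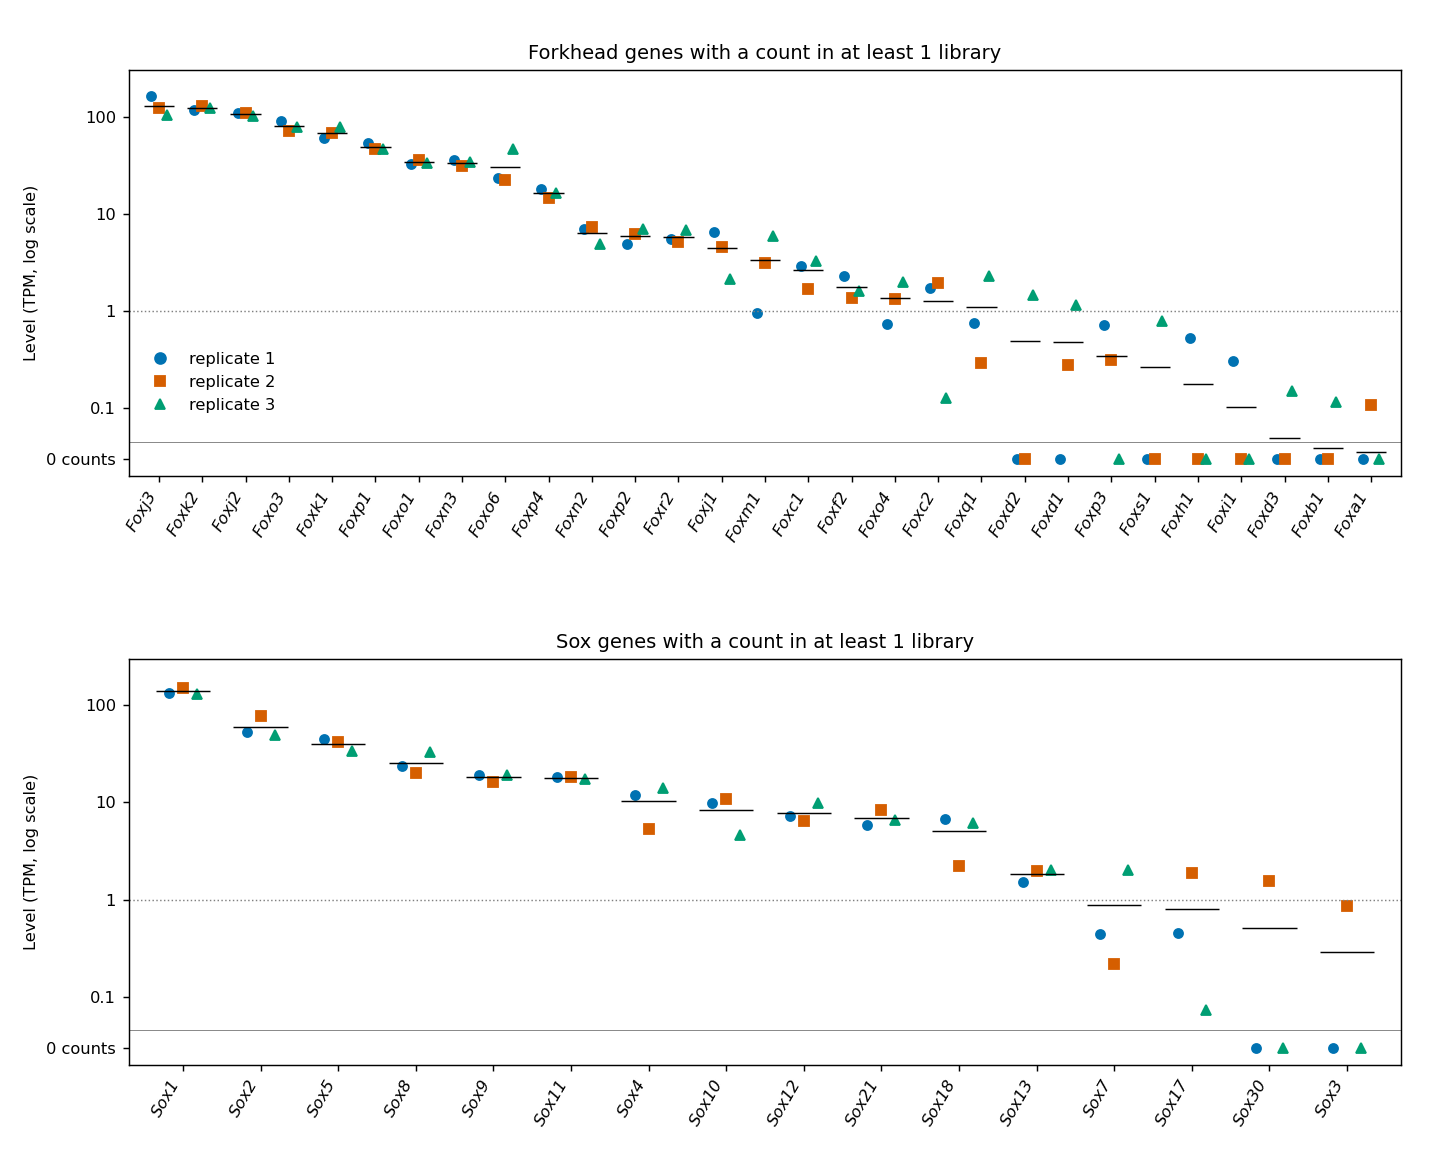
Level in TPM (log scale) of 29 forkhead genes (top) and 16 Sox genes (bottom) with a count in at least 1 library. Symbols are the 3 libraries, horizontal bars their mean, the dotted line marks 1 TPM, and libraries without a count sit in the strip at the bottom. Forkhead levels fall from Foxj3 at 129.6 TPM to genes with a count in 1 library only, and Sox levels from Sox1 at 139 TPM.

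Foxj3, Foxj2 and Foxk2, which are active in most tissues, each averaged over 100 TPM. Foxj3, a transcriptional activator on chromosome 4 from 119537004 to 119629119, stood at 162, 123 and 104 TPM (129.6 ± 29.6). Its paralog Foxj2, on chromosome 6 from 122819914 to 122845366, stood at 109, 109 and 101 TPM (107 ± 4.81). The ratio of Foxj3 to Foxj2 was 1.48, 1.13 and 1.02 in the 3 libraries, and their ranges overlapped. The Foxj3 level depends on the length used: with its longest transcript as length it stood at 225 TPM on average and at 2.32 to 3.35 times Foxj2.

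Foxk2, a repressor that binds the deubiquitinase Bap1, stood at 118, 129 and 123 TPM (123 ± 5.67) and is encoded on chromosome 11 from 121259990 to 121309896. Foxk1, its paralog and a partner of the Sin3 corepressor, stood at 59.9, 67.9 and 77.5 TPM (68.5 ± 8.82). Foxk2 was above Foxk1 in 3 of 3 libraries by 1.58 to 1.97 times, and the ranges did not overlap. The raw counts differed by only 1.10 to 1.37 times, since Foxk1 has the longer exons. Of 9 FoxK partners listed (Bap1 complex, Sin3 complex and Dishevelled genes), 9 reached 1 TPM in all libraries, from Dvl2 at 1.505 ± 0.207 TPM to Dvl3 at 117 ± 19.8 TPM. Bap1 itself stood at 42.2, 50.0 and 65.0 TPM and Sin3a at 73.2 ± 2.91 TPM.

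The FoxO genes, whose proteins leave the nucleus when insulin signalling activates the kinase Akt, ranged from among the upper levels of the set to the limit of detection. Foxo3 was highest at 90.9, 71.7 and 77.4 TPM (79.99 ± 9.86). Foxo1 stood at 32.7, 36.0 and 33.1 TPM (33.9 ± 1.85), with Foxo3 at 1.99 to 2.78 times its level and no overlap. Foxo6, a FoxO gene found mainly in brain, stood at 23.2, 22.1 and 45.9 TPM (30.4 ± 13.4). Replicate 3 was the high one, and Foxo1 was above Foxo6 in replicates 1 and 2 (1.41 and 1.63 times) and below it in replicate 3 (0.720 times). Foxo4 was near the limit, with 7, 13 and 20 counts and 1.35 ± 0.629 TPM.

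Genes around the FoxO factors were largely present. Of 23 regulators, 21 reached 1 TPM in all libraries, the kinase Sgk2 being lowest at 0.104 ± 0.180 TPM. Of the kinases that move FoxO proteins out of the nucleus, Akt1 stood at 47.5 ± 6.28 TPM and Akt2 at 21.5 ± 3.93 TPM. Of 17 genes known as FoxO targets, 13 reached 1 TPM in all libraries. The detoxifying enzymes Sod2 at 316 ± 54.8 TPM and Cat at 242 ± 53.8 TPM led them, the cell-cycle inhibitor Cdkn1b stood at 25.6 ± 1.85 TPM and the muscle ubiquitin ligase Trim63 had no count. Pdk4, a metabolic FoxO target, stood at 6.61, 3.24 and 0.394 TPM.

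Foxp1, a factor of striatal and mid-layer cortical projection neurons, led the FoxP genes at 53.7, 46.4 and 46.3 TPM (48.8 ± 4.24). Foxp4 followed at 18.1, 14.5 and 16.3 TPM (16.3 ± 1.81). Foxp2, known for its role in speech and for its expression in deep-layer and striatal neurons, stood at 4.86, 6.15 and 6.90 TPM (5.97 ± 1.03). Foxp1 was 6.71 to 11.1 times above Foxp2 and 2.84 to 3.20 times above Foxp4, without overlap. In the raw counts the order of Foxp4 and Foxp2 turned in replicates 2 and 3 but not in replicate 1. Foxp4 had 0.71 to 1.12 times the counts of Foxp2, a gene with 16346 nt of annotated exons. With the longest transcript as length, Foxp1 stood at 70.9 TPM and Foxp2 at 10.9 TPM. Foxp3, the factor of regulatory T cells, had 9, 4 and 0 counts. Exons of other genes overlap 31.5% of the Foxp3 exons, among them Ppp1r3f with 143, 346 and 355 counts.

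Partners of the FoxP factors reached 1 TPM in 14 of 15 cases, led by the chromatin remodeller Chd3 at 301 ± 27.4 TPM. Ctbp1, a corepressor that FoxP proteins recruit, stood at 39.1, 58.1 and 69.7 TPM, lowest in replicate 1. The synaptic adhesion gene Cntnap2, a Foxp2 target, stood at 147 ± 28.3 TPM. Srpx2, another one, was lowest of the list at 0.562 ± 0.386 TPM. Striatal projection neuron markers, which share cells with Foxp1 and Foxp2 outside the cortex, reached 1 TPM in 7 of 8 cases with sums of 139 to 150.1 TPM, and their part in the FoxP levels was not tested.

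Of the FoxN genes, Foxn3, a repressor with a checkpoint role, stood at 35.8, 30.8 and 34.3 TPM (33.6 ± 2.56) and Foxn2 at 6.95, 7.24 and 4.85 TPM (6.35 ± 1.31). Foxn3 was 4.25 to 7.07 times higher. Foxn1, which builds the thymus, and Foxn4, a factor of retinal and spinal progenitors, had no count.

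Foxr2 on the X chromosome, a forkhead gene that is silent in most adult tissues and active in some brain tumours, was present at a low and even level. It had 49, 46 and 63 counts, or 5.53, 5.09 and 6.79 TPM (5.80 ± 0.882). The related Foxr1 had no count in the same libraries. Foxr2 lies on the X chromosome from 153118786 to 153132861, and no other annotated gene overlaps its exons. On merged exon lengths its range overlapped that of Foxp2, whereas with longest transcripts as lengths Foxr2 stood at 4.40 TPM and Foxp2 at 10.9 TPM.

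Sox1, a SoxB1 factor of neural progenitors that stays on in some ventral forebrain neurons, had the highest mean of the set on merged exon lengths, at 135, 151 and 131 TPM (139 ± 11.03). Its range overlapped that of Foxj3, which was higher in replicate 1. With longest transcripts as lengths Foxj3 stood at 225 TPM against 105 TPM for Sox1. It has 1 exon and lies on chromosome 8 from 12395295 to 12400126. Its counts were 1792, 2059 and 1824, and its TPM lay between percentiles 90.3 and 91.8 of all genes with a count. Sox2, the SoxB1 factor of stem cells and astroglia, stood at 52.7, 77.4 and 49.0 TPM (59.7 ± 15.4), highest in replicate 2. Sox1 was above Sox2 by 1.96 to 2.67 times, with no overlap between their ranges. GENCODE gives Sox2 2057 nt and Sox1 4832 nt, while RefSeq gives 2467 and 4037 nt. With the RefSeq lengths, an alternative chosen after seeing the data, the ratio was 2.81 to 3.83.

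Sox3, the third SoxB1 gene, had 0, 5 and 0 counts. Sox2ot, the noncoding RNA in whose intron Sox2 lies, stood at 43.8, 38.2 and 42.3 TPM. The SoxB2 genes, which counteract SoxB1, were lower: Sox21 had 5.83, 8.42 and 6.65 TPM (6.97 ± 1.32) and Sox14, a gene of GABAergic cells of the diencephalon, had no count. Of 8 POU genes listed as SoxB partners, 6 reached 1 TPM in all libraries. Pou3f3 led them at 47.6, 65.0 and 49.4 TPM, and the pluripotency factor Pou5f1 had no count. Whether Sox2ot or the POU genes follow Sox2 between libraries was not tested.

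The SoxC genes, which drive the maturation of young neurons, were present at levels below Sox1 and Sox2. Sox11 had the smallest spread of the 30 members tested for variation, at 18.4, 18.1 and 17.4 TPM (17.9 ± 0.519). Sox4 stood at 11.9, 5.34 and 13.9 TPM (10.4 ± 4.49), with replicate 2 the lowest. Exons of Gm26735 on the opposite strand, not listed in the files, overlap 54.6% of the Sox4 exon, so that reads of either cannot be told apart without strand. Sox12 stood at 7.17, 6.46 and 9.87 TPM (7.84 ± 1.80). Sox11 was above Sox4 in 3 of 3 libraries by 1.25 to 3.39 times, and Sox4 and Sox12 overlapped. Beside them, the markers of immature neurons and progenitors reached 1 TPM in 5 of 9 cases. The migrating-neuron gene Dcx stood at 19.7, 19.5 and 24.4 TPM, and the proliferation markers Mki67 and Top2a at 0.965 ± 0.174 and 0.222 ± 0.0403 TPM.

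Sox5, the SoxD gene that works in deep-layer cortical neurons and in glia, stood at 44.6, 42.0 and 33.5 TPM (40.1 ± 5.85). Its locus spans chromosome 6 from 143828425 to 144781977, and with its longest transcript as length the level was 60.3 TPM. Sox13, the other SoxD gene of the set, had 18, 24 and 25 counts (1.83 ± 0.276 TPM).

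SoxE genes mark glia. Sox8 stood at 23.4, 19.9 and 33.2 TPM (25.5 ± 6.88), Sox9, a factor of astrocytes, at 19.2, 16.1 and 19.3 TPM (18.2 ± 1.83), and Sox10, the factor of the oligodendrocyte lineage, at 9.87, 10.7 and 4.65 TPM (8.41 ± 3.28). Sox8 was above Sox9, and Sox9 above Sox10, in 3 of 3 libraries without overlap. In raw counts Sox9 and Sox8 could not be ordered, at ratios of 0.769 to 1.09. Sox10 fell to 41 counts in replicate 3 from 83 and 92, whereas Sox8 was highest there, so the ratio of Sox8 to Sox10 ran from 1.86 to 7.14. Oligodendrocyte markers reached 1 TPM in 13 of 14 cases, and their sums were 478, 342 and 294 TPM. Myrf, a factor of myelination that acts with Sox10, stood at 2.29, 2.24 and 4.08 TPM and Olig2 at 18.9, 12.5 and 9.58 TPM. Astrocyte markers summed to 736, 625 and 639 TPM beside Sox9, and the glial gap junction gene Gja1 stood at 2.23, 1.32 and 2.29 TPM. Oligodendrocyte precursor markers summed to 51.1, 36.0 and 39.8 TPM, with 6 of 8 at 1 TPM in all libraries. Exons of 2810468N07Rik, an opposite-strand gene with 70, 83 and 112 counts, overlap 10.6% of the Sox8 exons. The part of oligodendrocyte and astrocyte RNA in the SoxE levels was not tested.

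SoxF genes act in blood and lymph vessels, and they were near the limit. Sox18 had 30, 10 and 29 counts (5.04 ± 2.48 TPM), Sox17 had 6, 25 and 1 and Sox7 had 4, 2 and 19. Each of the 3 genes had a different library at its top. Among endothelial markers, the tight-junction gene Cldn5 had 0, 3 and 0 counts, Kdr 0, 1 and 4, and Itm2a was highest at 16.9, 8.35 and 8.93 TPM. Foxq1, a forkhead gene of brain endothelium, had 10, 4 and 32 counts, and 66.1% of its exon is overlapped by the unlisted opposite-strand gene A530084C06Rik. Endothelial markers summed to 36.1, 20.2 and 19.2 TPM, and their part in these levels was not tested.

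**Figure D2:**
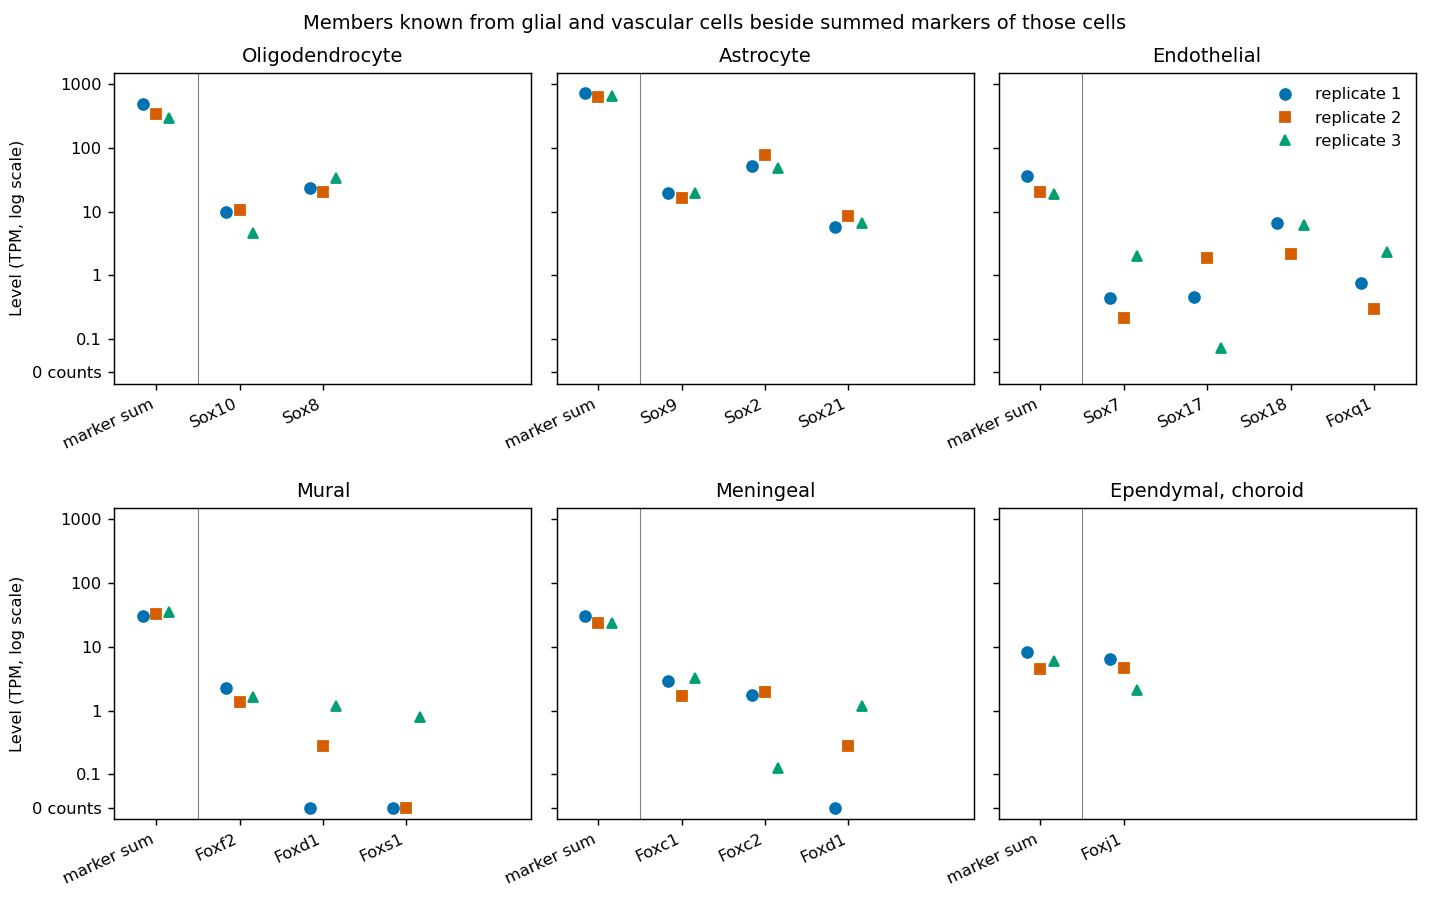
Members known from glial, vascular, meningeal and ependymal cells, with their TPM (log scale) in each of the 3 libraries, to the right of the summed TPM of the marker list of that cell type. Sox17 runs from 0.0725 to 1.86 TPM between libraries, on 6, 25 and 1 counts. The endothelial sum runs from 19.2 to 36.1 TPM, with Itm2a its highest gene. Single endothelial markers vary as well, Pecam1 from 0.175 to 1.72 TPM and Slco1a4 from 0.222 to 2.49 TPM, but Abcb1a only from 2.59 to 4.17 TPM.

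Forkhead genes of pericytes and meninges were low as well. Foxc1, a factor of the meninges, had 47, 28 and 55 counts (2.63 ± 0.818 TPM), Foxc2 had 13, 15 and 1, and Foxf2, a pericyte gene, had 15, 9 and 11 (1.76 ± 0.491 TPM). Foxd1, a stromal and pericyte progenitor gene, had 0, 4 and 17, and Foxs1, another pericyte gene, 0, 0 and 3. Mural markers summed to 30.8, 32.6 and 35.3 TPM with Rgs5 alone at 19.3 ± 0.319 TPM, and Higd1b at 0. Meningeal markers reached 1 TPM in 4 of 9 cases and summed to 29.98, 23.9 and 24.1 TPM. Their part in these levels was not tested.

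Foxj1, the switch for motile cilia, had 47, 34 and 16 counts (6.50, 4.61 and 2.11 TPM). The ependymal and choroid list stood at 8.42, 4.43 and 6.05 TPM in sum, with Folr1 at 0 and the choroid gene Ttr at 0, 0 and 2 counts. Foxj1 lay below that sum in replicates 1 and 3 and slightly above it in replicate 2. Whether ependymal cells contributed to it was not tested.

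Foxm1, the forkhead factor of dividing cells, had 15, 50 and 99 counts (0.946, 3.09 and 5.96 TPM). The proliferation gene Mki67 had 32, 23 and 27 counts and Top2a had 5, 5 and 7. Foxm1 varied 6.30-fold and was highest in replicate 3, while Mki67 did not pass the test of variation (chi-square, adjusted p = 0.404) and Top2a had too few counts to be tested. The part of dividing cells in the Foxm1 level was not tested. Exons of Gm44596 and Tex52, which the files do not list, overlap 2.50% of the Foxm1 exons.

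Several genes had counts in a single library only. Foxd2 had 0, 0 and 11 counts and Sox30, a testis gene, 0, 13 and 0. The mesoderm factor Foxh1 and the ionocyte factor Foxi1 had 2 counts in replicate 1 each, while Foxd3 and Foxb1 had 1 in replicate 3 and Foxa1 had 1 in replicate 2. The 14 forkhead genes without a count were Foxa2, Foxa3, Foxb2, Foxd4, Foxe1, Foxe3, Foxf1, Foxi2, Foxi3, Foxl1, Foxl2, Foxn1, Foxn4 and Foxr1. Most of them are known from organs outside the brain, such as Foxa3 from liver, Foxe1 from thyroid, Foxe3 from lens and Foxl2 from ovary. Among Sox genes, Sox14 and Sox15 had none. A count of 0 allows up to 3 counts, or 0.209, 0.215 and 0.207 CPM (counts scaled to equal gene totals) in replicates 1, 2 and 3, for counting error only.

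Some forkhead genes lie next to each other on a chromosome. On chromosome 13, Foxq1, Foxf2 and Foxc1 follow each other with gaps of 64.8 and 175.2 kb, and all had counts. On chromosome 8, Foxf1, Foxc2 and Foxl1 follow with gaps of 28.0 and 9.0 kb, and only Foxc2 had counts. On chromosome 4, Foxd2 and Foxe3 are 16.3 kb apart, with 11 counts in 1 library for Foxd2 and none for Foxe3.

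Variation between libraries was tested with a chi-square test of each gene's 3 counts against what TMM-scaled library sizes predict, for the 12949 genes that averaged 1 CPM or more, adjusted over all of them. It was past the threshold for 22 of 30 members (73.3%), against 74.3% of all genes tested, a share near the background. The coefficient of variation beyond counting error (edgeR, intercept only) had a median of 21.8% over these members and 22.4% over all genes. edgeR draws these values toward a trend shared by genes of similar level, so they are not each gene's own spread. Sox11, for example, was given 17.9% at a TPM of 17.9 ± 0.519. The closeness of the medians in part reflects that shared trend. For abundant genes small ratios passed, such as 1.08-fold for Foxj2 (chi-square, adjusted p = 0.00665). Folds given beside this test are the highest over the lowest TPM, whereas the test used counts and TMM-scaled library sizes, so the fold tested differs somewhat.

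The members that did not pass were Foxk2, Foxo1, Foxp4, Foxr2, Sox9, Sox11, Sox13 and Sox21, with adjusted p-values from 0.0505 for Foxp4 to 0.689 for Sox13 (chi-square). Sox11 varied 1.06-fold over the libraries (chi-square, adjusted p = 0.484) and Foxo1 1.10-fold (chi-square, adjusted p = 0.118). Sox11 had 417 to 423 counts and Foxo1 780 to 879, whereas Sox13 had 18 to 25, so smaller differences were detectable for the former genes.

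The largest spread among the 22 was that of Foxq1 (7.79-fold; chi-square, adjusted p = 5.68e-06) and Foxm1 (6.30-fold; chi-square, adjusted p = 9.74e-13). Foxj1 varied 3.08-fold (adjusted p = 0.000337), Sox18 3.06-fold (adjusted p = 0.00584), Sox4 2.61-fold (adjusted p = 2.36e-11) and Sox10 2.30-fold (adjusted p = 1.89e-05). Foxo6 varied 2.07-fold (adjusted p = 7.12e-18). Of the genes above 100 TPM on average, Foxj3 had the largest ratio, at 1.56-fold (chi-square, adjusted p = 9.95e-103). The 30 tested members, called or not, had no single top library by TPM: 11 were highest in replicate 1, 7 in replicate 2 and 12 in replicate 3. The same split over all genes tested was not computed.

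**Figure D3:**
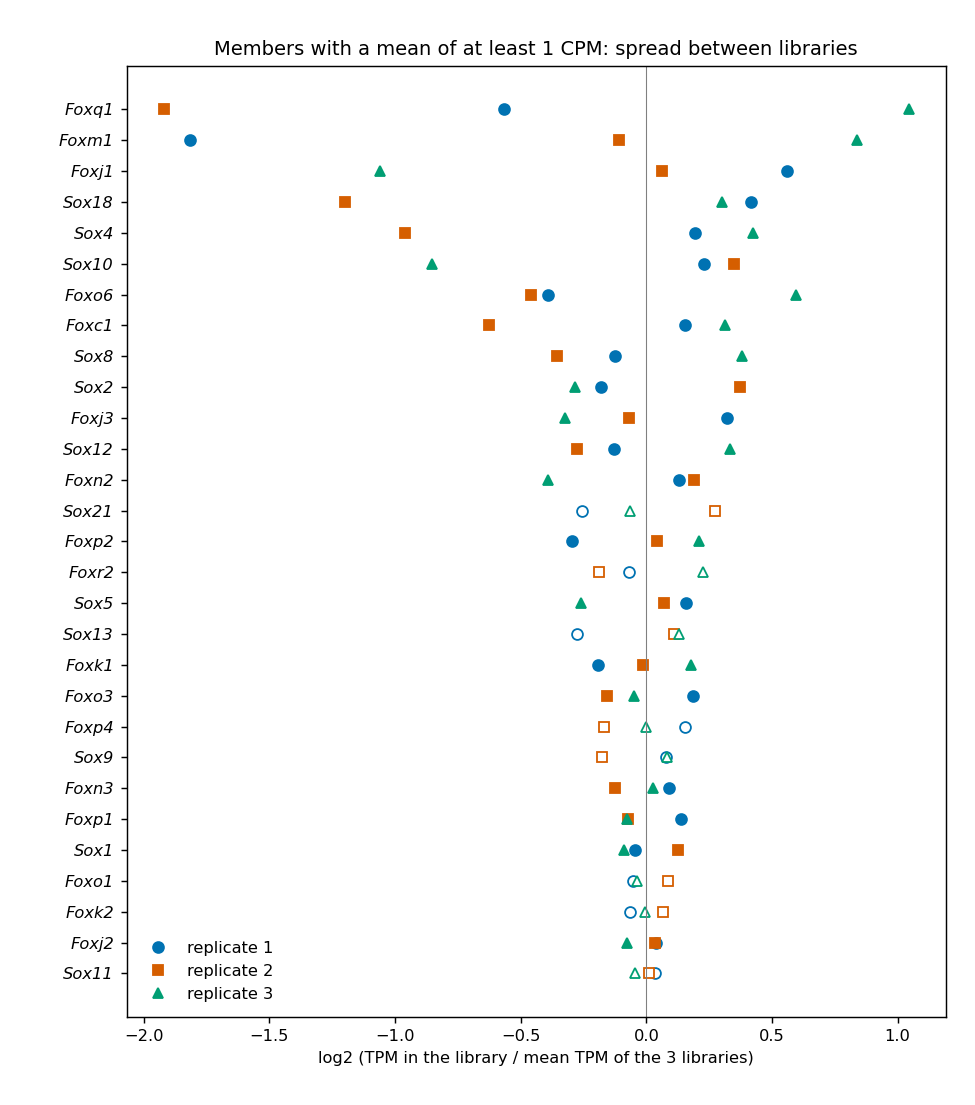
Spread between libraries of 29 members that averaged 1 CPM or more, as log2 of TPM in a library over the mean of the 3 libraries. Filled symbols are genes past the chi-square threshold (21 genes), open symbols are the other 8. Foxq1 and Foxm1 at the top spread widest and Sox11 at the bottom least.

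To place the members in 1 order of levels, each gene of the whole table was set against Sox2 within each library as a difference of log2(TPM + 0.1) and tested with limma. Over 16652 genes, 11.7% were above Sox2 and 69.6% below it at an adjusted p under the threshold of 0.05. Of 45 members with a count, 5 were above and 34 below, and 6 were not told apart from it. Since all these differences share the Sox2 values, they are not independent of each other.

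The members above Sox2 included Sox1 (log2 difference 1.24, SD 0.24; limma, adjusted p = 0.00437), Foxj3 (1.12, SD 0.47; limma, adjusted p = 0.0102), Foxk2 (1.08, SD 0.30; limma, adjusted p = 0.0136) and Foxj2 (0.86, SD 0.32; limma, adjusted p = 0.0473). Each was higher than Sox2 in 3 of 3 libraries. None of the 5 calls held without replicate 1 or without replicate 3, where 2 libraries remain. The differences themselves stayed near their size in those fits, at 1.19 and 1.16 for Sox1 and 1.03 and 0.95 for Foxk2. With unmoderated spread 2 of the 5 held. That of Foxj2 was also lost with a pseudocount of 0.01 (0.86) and with the longest transcripts as lengths (0.88).

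The 6 members not told apart from Sox2 were Foxo3, Foxk1, Foxp1, Sox5, Foxo1 and Foxn3. Foxo3 lay above it in 2 of 3 libraries (log2 difference 0.44, SD 0.48; limma, adjusted p = 0.314), as did Foxk1 (0.22, SD 0.43; limma, adjusted p = 0.625). Foxp1 lay below it in 2 of 3 libraries (-0.26, SD 0.41; limma, adjusted p = 0.557). Sox5 (-0.56, SD 0.32; limma, adjusted p = 0.204), Foxo1 (-0.78, SD 0.28; limma, adjusted p = 0.0716) and Foxn3 (-0.80, SD 0.46; limma, adjusted p = 0.0672) lay below it in 3 of 3. With a pseudocount of 1, Foxo1 (-0.77) and Foxn3 (-0.78) passed the threshold below Sox2. Without a length correction, Foxo3 (2.32) and Foxk1 (2.10) passed it above Sox2. Places in this order rest on the lengths: without a length correction Foxp1 and Sox5 turned to log2 differences of 2.47 and 2.24 above Sox2, because their annotated exons are 13751 and 14376 nt long against 2057 nt for Sox2.

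SoxE and SoxC genes lay below Sox2, each in 3 of 3 libraries. The fold was 2.34 for Sox8 (limma, adjusted p = 0.00533), 3.22 for Sox9 (limma, adjusted p = 0.000147) and 3.25 for Sox11 (limma, adjusted p = 0.000125). The glial gene Sox10 lay 7.32-fold below it (limma, adjusted p = 1.14e-09) and Sox4 6.04-fold (limma, adjusted p = 3.91e-08). The SDs of their log2 differences were 0.48 and 1.09. limma pools spread over genes, so their standard errors were nearly the same, at 0.412 and 0.421. The p-value of Sox4 thus does not reflect its own wide spread, and unmoderated results for Sox4 and Sox10 are not given here. The Sox8 call was lost without replicate 1 or 2 (log2 differences of -1.26 and -0.86) and with unmoderated spread. Without a length correction Sox11 turned to a log2 difference of 0.31 above Sox2, and the calls of Sox8 and Sox9 were lost at -0.63 and -0.68.

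Among forkhead genes, Foxo6 lay 2.04-fold below Sox2 (limma, adjusted p = 0.0203) and Foxp4 3.58-fold below it (limma, adjusted p = 3.72e-05). The Foxo6 call was lost without replicate 1 or 2 (-0.95 and -0.64), with unmoderated spread, with a pseudocount of 0.01, with RefSeq lengths of single-exon genes and without a length correction (-0.68). That of Foxp4 was lost without a length correction (-0.59).

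**Figure D4:**
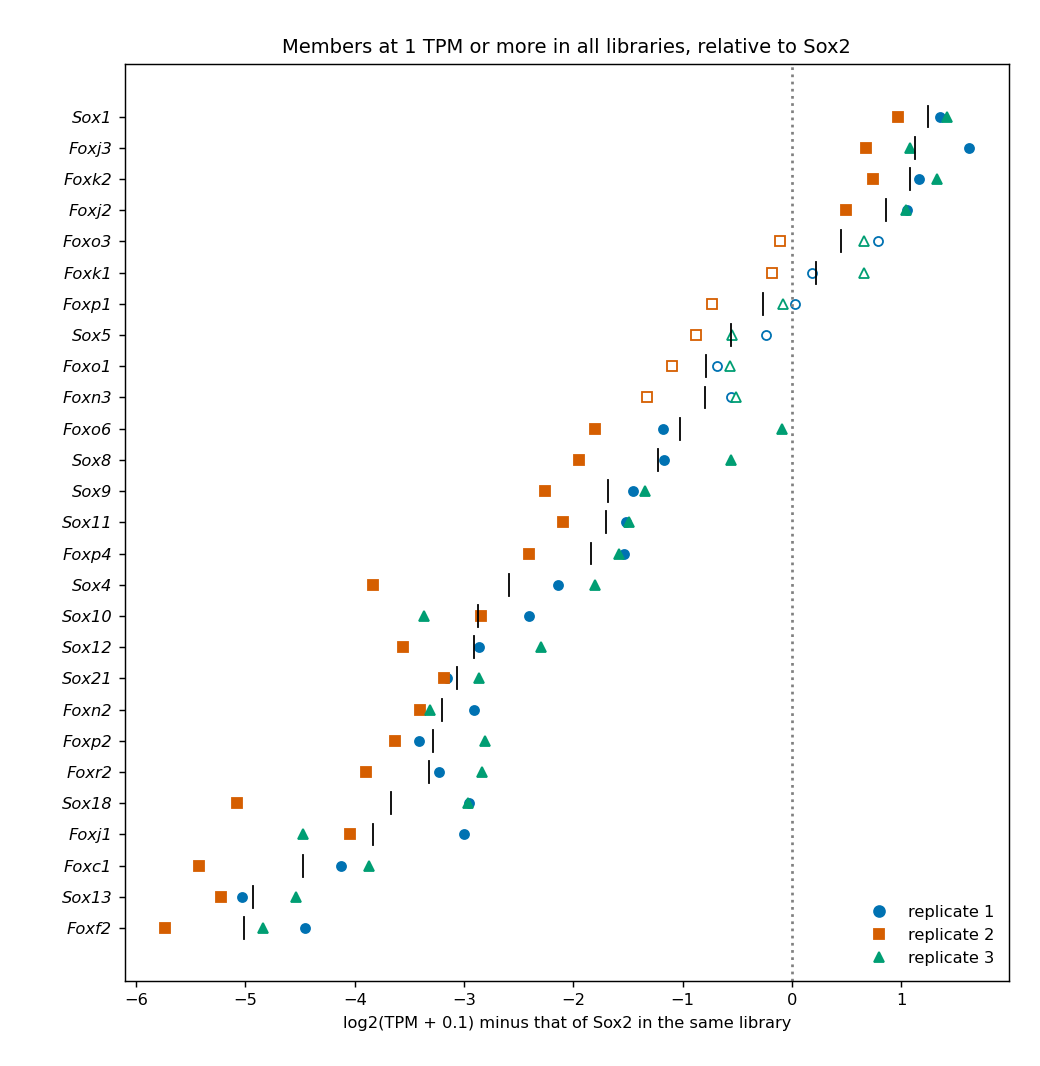
Difference of log2(TPM + 0.1) between 27 members at 1 TPM or more in all libraries and Sox2 in the same library. Symbols are the 3 libraries, black bars their mean, filled symbols genes told apart from Sox2 (limma) and open symbols the 6 that were not. The members spread from Sox1 at 1.24 to Foxf2 at -5.01.

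In the order of the 29 members at 1 TPM or more, neighbours mostly could not be told apart. The ranges of 23 of 28 neighbouring pairs overlapped. The 5 steps without overlap lay between Foxk2 and Foxj2, Foxj2 and Foxo3, Foxp1 and Sox5, Sox8 and Sox9, and Foxp4 and Sox4. The members nearest the level of 1 TPM were Foxf2 and Sox13 above it in all libraries, and Foxo4 with 0.729 TPM in replicate 1 and Foxm1 with 0.946 TPM in replicate 1 below it.

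Other factors tied to Sox and forkhead proteins were present in part. Of 5 Groucho corepressors measured, which several forkhead proteins recruit, 4 reached 1 TPM in all libraries, led by Tle4 at 74.6 ± 2.63 TPM, and Tle6 was lowest at 0.693 ± 0.463 TPM. Of the β-catenin and TCF factors, with which Sox proteins compete, 3 of 5 reached 1 TPM, and Ctnnb1 stood at 139.9, 245 and 285 TPM, lowest in replicate 1. Lef1 was the lowest of them at 0.572 ± 0.508 TPM.

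The stretches before the start sites were compared between members with and without counts. RefSeq promoters (GRCm38.p6) were found for 40 of 62 members, and the 250 bases before the start were used, with the first entry by coordinate where a gene had several. CpG pairs are frequent at the starts of broadly expressed and of developmental genes. The stretches below show the 120 bases just before the start, 5′ to 3′ on the gene's strand, with CpG pairs in capitals. Foxk2, Foxj3, Sox2 and Sox11 are shown as examples of members with counts and Sox14, Sox15 and Foxn1 of members without. Sox5 is shown as an abundant member with no CpG pair in the stretch.
Foxk2 (chr11:121259867-121259986, plus strand): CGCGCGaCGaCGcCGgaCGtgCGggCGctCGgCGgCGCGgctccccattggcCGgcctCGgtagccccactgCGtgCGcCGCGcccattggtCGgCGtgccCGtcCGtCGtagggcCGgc
Foxj3 (chr4:119539541-119539660, plus strand): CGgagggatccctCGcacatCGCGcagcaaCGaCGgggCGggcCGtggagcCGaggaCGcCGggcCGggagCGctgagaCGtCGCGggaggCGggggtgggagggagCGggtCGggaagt
Sox2 (chr3:34649875-34649994, plus strand): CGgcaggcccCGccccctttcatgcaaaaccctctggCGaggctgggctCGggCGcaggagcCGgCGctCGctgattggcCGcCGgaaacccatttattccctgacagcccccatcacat
Sox11 (chr12:27342719-27342838, minus strand): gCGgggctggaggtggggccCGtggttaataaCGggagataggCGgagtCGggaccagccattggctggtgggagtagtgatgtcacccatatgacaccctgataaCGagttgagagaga
Sox5 (chr6:143947107-143947226, minus strand): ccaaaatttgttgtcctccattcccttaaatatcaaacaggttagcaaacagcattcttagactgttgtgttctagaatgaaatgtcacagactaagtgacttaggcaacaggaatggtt
Sox14 (chr9:99876171-99876290, minus strand): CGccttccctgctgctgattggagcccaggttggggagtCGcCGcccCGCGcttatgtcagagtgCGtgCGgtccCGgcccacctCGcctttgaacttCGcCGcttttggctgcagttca
Sox15 (chr11:69654917-69655036, plus strand): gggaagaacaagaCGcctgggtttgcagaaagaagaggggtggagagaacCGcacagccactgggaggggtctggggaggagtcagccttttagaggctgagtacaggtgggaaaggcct
Foxn1 (chr11:78386609-78386728, minus strand): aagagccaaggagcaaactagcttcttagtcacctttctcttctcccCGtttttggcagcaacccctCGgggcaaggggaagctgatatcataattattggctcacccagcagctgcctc

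The 120 bases held 25 CpG pairs in Foxk2, 19 in Foxj3, 10 in Sox2 and 6 in Sox11. In the genes without a count they held 11 in Sox14 and 2 each in Sox15 and Foxn1. The examples do not span their groups. Of stretches not shown, Sox21, a member with counts, held 4. Among members without a count, Foxa3 held 13, Foxa2 6 and Foxb2 and Foxe3 5 each. Over the whole 250 bases, the 20 members with a promoter that reached 1 TPM in all libraries had a median of 27 CpG pairs, against 16 for the 9223 other genes at that level. The 13 members without a count had a median of 13, against 2 for the 3751 other protein-coding genes without a count. Members without a count such as Foxi3 with 24 pairs and Sox14 with 23 thus lay above the median of other genes at 1 TPM or more in all libraries. Among members with counts, Sox5 and Foxr2 had 3 pairs each and Foxn3 had 5. The RefSeq start lies more than 500 nt inside the annotated locus for 7 of 40 members, among them Sox5, Foxp1, Foxn3 and Foxj3 (834.87, 494.42, 113.51 and 2.66 kb), so that other starts of these genes are not covered. These are descriptions of sequence, with no test.

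**Figure D5:**
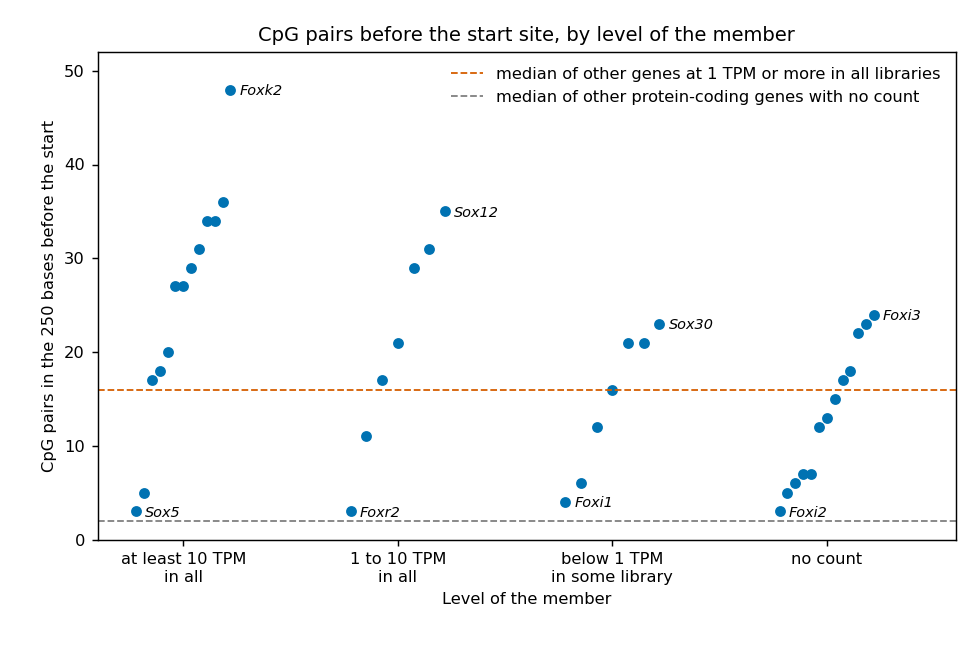
CpG pairs in the 250 bases before the RefSeq start of 40 members, grouped by their level in the libraries. Each point is a gene, and dashed lines are medians of other genes with at least 1 TPM in all libraries (16) and of other protein-coding genes without a count (2). Foxk2 stands highest at 48 pairs, and the members without a count run from 3 to 24.

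Each binding motif of the families themselves was found in 2 to 6 of the 40 windows. The forkhead motif GTAAACA, on either strand, was found before the start of 2 of 40 members (5.0%) and 3.12% of all RefSeq promoters of the same length. It occurs before Sox12 and Foxa1, and the latter match overlaps matches to a Sox motif. The Sox motif ACAAAG was found in 6 members (15%) against 16.7% of all, and ACAATG in 3 members (7.5%) against 10.9%, both on either strand. Among promoters of protein-coding genes the shares were 2.68% for GTAAACA, 14.9% for ACAAAG and 8.95% for ACAATG. The stretches below show the Sox12 match, 107 bases before the start, and the match in Sox2, 206 bases before its start, in capitals.
Sox12 (chr2:152398127-152398173, minus strand): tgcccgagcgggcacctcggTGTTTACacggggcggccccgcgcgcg
Sox2 (chr3:34649769-34649814, plus strand): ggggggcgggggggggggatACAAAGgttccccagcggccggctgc

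In Sox12 the motif reads as its reverse complement on the gene's strand. Such matches are letters in a window, and these data hold no measurement of binding.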

How the data were processed

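Each of the 3 files holds raw read counts per gene symbol, as deposited by the authors. Per the submitters' processing notes, STAR 2.0.0e, HTSeq and the build mm10 were used. What each did, the annotation, the strand setting and the counting mode were not given in the sources used here. Summary rows of the count files were left out of library sizes: reads without a feature came to 10.95 to 13.07% of the row totals, ambiguous reads to 2.49 to 2.83% and reads aligned at several places to 11.15 to 13.06%. A row named unknown held 0 counts.

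Counts were divided by the merged exon length of GENCODE M21 (GRCm38, the same assembly as mm10) to give TPM; 23898 of 32531 symbols had a length, 23161 by symbol and 737 through an older name. These hold 94.7 to 97.1% of the counts. Differences between close TPM values rest on those lengths. Variation was tested by chi-square on counts with sizes from edgeR 4.0.16 for genes averaging 1 CPM or more. Levels were set against Sox2 with limma 3.58.1 on log2(TPM + 0.1), with Benjamini-Hochberg adjustment over all genes and a threshold of 0.05. Both were tested on simulated data. For limma the simulated reference gene was constant and the other genes varied independently. That simulation therefore does not cover the spread of Sox2, which all the real differences share. Precision is limited by 3 libraries and, for low genes, by counting error; the floor of 3 counts covers counting error only. Alternatives were the length, the pseudocount, filters, DESeq2 1.42.0 size factors, unmoderated spread and leaving out each library. Values in every library are given for each member at 10 TPM or more, with exceptions, and single genes of other lists were chosen after their values were seen. Some genes and the comparisons that need them are not reported here. The members and the gene lists were chosen with earlier results of these data known.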

Additional observations from a re-analysis of the deposited data

How the results depend on the processing

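The number of members at 1 TPM or more in all libraries, 29, was 29 to 31 when 1 library was left out and 26 to 31 with other lengths or thresholds. Members varying between libraries fell from 22 to between 15 and 18 with 1 library left out, which leaves 2 counts a gene. Their share against that of all genes tested was 58.1% against 42.7% without replicate 1, 50.0% against 62.4% without replicate 2 and 53.3% against 54.9% without replicate 3, so its side of the background changed with the library. Members above Sox2, 5 in the fit on all libraries, numbered 11 without a length correction, 2 with unmoderated spread and 0 to 5 with 1 library left out (0 without replicate 1 and 0 without replicate 3). The 34 below Sox2 became 21 among genes at 1 TPM or more on average, where fewer genes are tested. It was 28 without a length correction, 30 with unmoderated spread, 36 with a pseudocount of 1 and 32 to 34 with 1 library left out.

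Without a length correction the log2 differences from Sox2 turned to 2.47 for Foxp1, 2.24 for Sox5, 1.28 for Foxo1, 1.68 for Foxn3 and 0.31 for Sox11. When lengths were those of the longest transcript, Foxp1 and Sox5 turned to 0.67 and 0.43. With 1 library left out, the difference of Foxk1 from Sox2 ran from -0.0016 to 0.42, turning without replicate 3; this gene had not been told apart from Sox2. RefSeq lengths for single-exon members, added after seeing the data, left 14 of 15 single-gene differences on their side of the threshold. No paired analysis was possible because all 3 libraries belong to 1 group.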
